A study of Mus musculus with 12 samples.

Results

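The mRNA levels of 10 circadian clock genes, Arntl, Clock, Per1, Per2, Per3, Cry1, Cry2, Dbp, Nr1d1 and Nr1d2, were followed in mouse testes from young adulthood to old age. The genes were chosen by name, and the reads of their transcripts that match a known transcript, share its splice junctions or overlap its exons on the same strand were summed per gene. This took 27 of the 29 transcripts that carry these gene names, and gave 10 genes of the 24516 obtained by summing all transcripts in the same way. Total RNA was sequenced from testes of 12 wild-type mice of the inbred strain C57BL/6, 3 each at 3 months (3M), 6 months (6M), 12 months (12M) and 18 months (18M), with 1 library per mouse. Each mouse is named here by its age and number, such as 6M-2. The sources used here do not give the time of day at which the testes were taken, and differences between mice in that time cannot be told apart from other differences between mice.

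The circadian clock is a feedback loop of transcription that runs in nearly every tissue with a period of about a day. Its positive limb is the dimer of BMAL1, the product of Arntl, with CLOCK, which binds the E-box in the promoters of the Per and Cry genes. The PER and CRY proteins then gather and repress that dimer, and so their own genes. Another loop runs through REV-ERB alpha and REV-ERB beta, the products of Nr1d1 and Nr1d2, which bind the RRE element and repress Arntl. Dbp is an output gene of the loop whose product activates other genes through the D-box. In a tissue with a running clock, Arntl peaks at about the opposite time to Dbp, Nr1d1 and the Per genes. The testis is known as a tissue in which rhythms of the clock genes are weak or absent and in which Per1 is made by developing germ cells.

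The elements named above were searched for in the RefSeq promoter of each gene, from 250 bases before the start site to 50 after it, on mm10 (GRCm38.p6). Promoters of 9 of the 10 genes were found there, with 13 start sites, and 6 of these sites held at least 1 element. The promoters of Per1, Cry1, Nr1d1 and Per3 are shown because they hold, in turn, an E-box, an E-box with the related E'-box, an E'-box alone and a pair of D-boxes. Each sequence is the 250 bases before the start site, written 5′ to 3′ on the strand of the gene, with the elements in capitals. They lie at chr11:69098699-69098948 on the plus strand for Per1, and on the minus strand at chr10:85185055-85185304 for Cry1, chr11:98775378-98775627 for Nr1d1 and chr4:151044666-151044915 for Per3.
Per1: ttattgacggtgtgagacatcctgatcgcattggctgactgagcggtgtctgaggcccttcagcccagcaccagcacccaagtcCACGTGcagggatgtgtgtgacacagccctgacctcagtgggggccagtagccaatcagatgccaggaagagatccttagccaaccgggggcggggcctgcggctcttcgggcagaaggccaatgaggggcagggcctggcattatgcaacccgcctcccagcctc
Cry1: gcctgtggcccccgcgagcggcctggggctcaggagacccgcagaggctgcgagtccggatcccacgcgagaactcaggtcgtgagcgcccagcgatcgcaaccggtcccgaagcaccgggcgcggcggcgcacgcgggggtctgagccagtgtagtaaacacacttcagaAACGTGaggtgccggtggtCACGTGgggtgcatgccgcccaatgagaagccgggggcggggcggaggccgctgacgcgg
Nr1d1: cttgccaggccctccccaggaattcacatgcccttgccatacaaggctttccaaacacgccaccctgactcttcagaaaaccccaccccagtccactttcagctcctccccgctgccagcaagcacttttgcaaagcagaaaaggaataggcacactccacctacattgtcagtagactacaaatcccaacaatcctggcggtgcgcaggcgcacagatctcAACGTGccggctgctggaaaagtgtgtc
Per3: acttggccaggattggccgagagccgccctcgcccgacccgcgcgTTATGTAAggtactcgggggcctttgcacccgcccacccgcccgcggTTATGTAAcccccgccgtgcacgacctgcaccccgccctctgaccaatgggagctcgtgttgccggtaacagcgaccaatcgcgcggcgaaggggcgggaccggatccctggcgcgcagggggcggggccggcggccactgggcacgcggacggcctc

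The E-box CACGTG lay at bases -166 to -161 of Per1 and -60 to -55 of Cry1, counted from the start site. The E'-box CACGTT, read on the other strand as AACGTG, lay at -79 to -74 in Cry1, -166 to -161 in Cry2 and -28 to -23 in Nr1d1. Per3 held the D-box TTATGTAA at -205 to -198 and again at -158 to -151. One of the 2 start sites of Arntl was followed at +29 to +37 by AGTAGGTCA, which matches the RRE as searched, ANTAGGTCA. On both strands of all 32851 RefSeq promoters of this length, the E-box was found in 7.15%, the E'-box in 4.68%, the D-box TTATGTAA in 0.938%, its form TTACGTAA in 0.119% and the RRE in 0.661%. A match is a run of letters in a window and was not tested for binding.

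All 10 clock genes were detected in all 12 testes. The libraries held between 50924104 and 71803379 estimated reads. The smallest sum of a clock gene was 212 reads, for Arntl, and the largest was 15724, for Per1. Counting error at the mean count was 5.97% for Arntl and 5.53% for Dbp, and between 0.901% and 4.15% for the other 8 genes. Levels are given in CPM, the counts per 1000000 counts of the library after scaling by edgeR's TMM factors, and all 10 genes passed its filter on low counts. These errors cover the counting of reads only, and not the spread between mice.

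On mm10, GENCODE vM21 places Arntl at chr7:113207465-113314126, Clock at chr5:76209868-76304792, Per1 at chr11:69095217-69109960, Per2 at chr1:91415982-91459324 and Per3 at chr4:151003652-151044665. Cry1 lies at chr10:85131700-85185064, Cry2 at chr2:92403646-92434043, Dbp at chr7:45705088-45710203, Nr1d1 at chr11:98767932-98775333 and Nr1d2 at chr14:18204054-18239127. All of them are protein-coding, with Arntl, Per1 and Dbp on the plus strand and the others on the minus strand.

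To compare the levels of different genes, FPKM was used, which divides the reads by the length of the transcript. Per1 stood at the top with a median of 29.0 FPKM (25.3 to 32.8 over the 12 mice). Cry1, a repressor of the loop, followed with a median of 14.5 FPKM (13.8 to 15.7). Nr1d1 and Cry2 came next with medians of 8.43 and 8.08 FPKM. Their ranges overlapped, with Nr1d1 the higher of them in 7 of 12 mice, and so their order is not settled by these data. Clock had a median of 4.53 FPKM, Nr1d2 3.35 FPKM and Dbp 3.22 FPKM. Their ranges overlapped from each to the next, with Clock above Nr1d2 in 10 mice and Nr1d2 above Dbp in 7. The lowest levels were those of Per2, at a median of 1.93 FPKM, Arntl, at 1.63 FPKM, and Per3, at 1.59 FPKM. Per2 was above Arntl in all 12 mice although their ranges touched, while Arntl was above Per3 in 6. Between Per1 and Cry1, Cry1 and Nr1d1, Cry2 and Clock, and Dbp and Per2 the ranges did not overlap.

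The tissue was checked by markers fixed in lists. The 5 genes of spermatids, among them the protamines Prm1 and Prm2, summed to between 11220 and 17420 CPM, and the 5 of spermatocytes to between 4609 and 4901 CPM. The 4 genes of the epididymis, the duct next to the testis, summed to between 0.0786 and 0.335 CPM. Immediate early genes, which respond to handling of tissue, summed to between 14.05 and 18.4 CPM and none of the 5 was called with age. In the list of 5 Leydig cell genes, Cyp11a1 and Cyp17a1, enzymes of testosterone synthesis, were called lower with age. The summed level of this list was 790 to 943.5 CPM at 3M, 749.9 to 1208 CPM at 6M, 596.5 to 620.1 CPM at 12M and 518 to 708.6 CPM at 18M. The part of these cells in the levels of the clock genes was not tested, and in whole testis fewer cells of a type and less RNA per cell cannot be told apart.

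None of the 10 clock genes passed the test of a change with age in any of the 6 comparisons run with edgeR, and 9 of them held levels within a range of 1.5-fold over all 12 mice. The question was whether the levels drift over the 15 months from 3M to 18M, and each comparison was fitted on all genes with edgeR's quasi-likelihood test and Benjamini-Hochberg adjustment. For a slope over age, fitted in months, 0 of 10 clock genes were called at an adjusted p of 0.05 or less, where 0.41% of the 18545 genes tested were called. The lowest adjusted p among them was 0.361, for Cry2, and 0 had an unadjusted p under 0.05, against 17.5% of all genes tested. In the test of any difference among the 4 ages, 0 were called, against 0.0917% of all genes, with 0 at an unadjusted p under 0.05 and a lowest adjusted p of 0.566. Between 3M and 18M, 0 were called, against 0.0662% of all genes, with 0 at an unadjusted p under 0.05. Over consecutive ages, 0 were called from 3M to 6M (0.0497% of all genes), from 6M to 12M (0.0551%) and from 12M to 18M (0.0275%), and DESeq2 called 0 in each of the 6 comparisons. At an unadjusted p under 0.05 there were 0, 2 and 0 clock genes in these 3 steps, against 4%, 8.48% and 3.48% of all genes tested. After adjustment, a count of 0 of 10 is near each share of all genes called. These calls set the clock genes apart from other genes in neither direction. The counts at an unadjusted p under 0.05 were not tested against those of all genes.

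**Figure D1:**
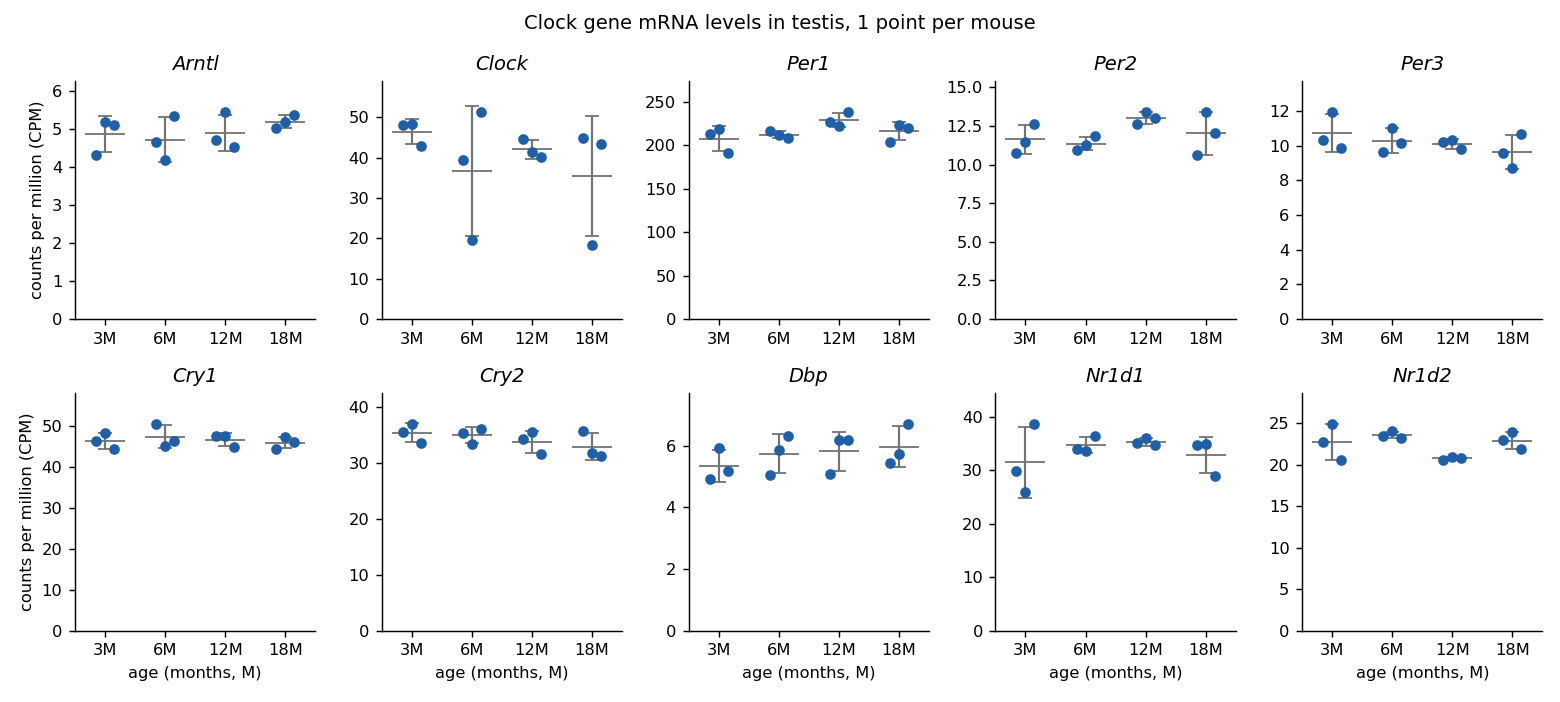
The mRNA level of each of the 10 clock genes in CPM (vertical axis, from 0) by age (horizontal axis), with 1 point per mouse and a grey bar for the mean and SD of 3 mice. The points of the 4 ages lie at about the same height in each panel, and the exceptions are mice 6M-2 and 18M-2 in the panel of Clock, at 19.5 and 18.3 CPM.

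Arntl encodes BMAL1, the clock protein without which the loop does not run. It measured 4.32, 5.18 and 5.11 CPM at 3M, 4.66, 4.18 and 5.35 CPM at 6M, 4.71, 5.45 and 4.54 CPM at 12M, and 5.03, 5.20 and 5.39 CPM at 18M. The ages overlapped, and the range over the 12 mice was 1.3-fold. By the slope, the log2 change over 15 months was 0.11 ± 0.10 (SE), with a 95% interval from -0.11 to 0.33 (adjusted p = 0.60, edgeR).

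Clock encodes the partner of BMAL1. It measured 48.0, 48.3 and 42.8 CPM at 3M, 39.3, 19.5 and 51.3 CPM at 6M, 44.5, 41.3 and 40.1 CPM at 12M, and 44.8, 18.3 and 43.4 CPM at 18M. Mouse 6M-2 and mouse 18M-2 stood apart as the lowest of all, and the other 10 mice lay between 39.3 and 51.3 CPM. The log2 change over 15 months was -0.26 ± 0.30 (SE), with a 95% interval from -0.90 to 0.38 (adjusted p = 0.68, edgeR). This was the widest interval among the 10 genes. Without 18M-2 the slope turned from -0.0172 to 0.00064 log2 units per month, without 6M-2 it was -0.0250, and without both mice -0.0069, none of them called.

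The low values of Clock went with the coverage of its last exon. In the RefSeq transcript NM_001305222 this exon lies at chr5:76209868-76216878 on the minus strand and is 7011 bases long. The coverage of this exon, scaled as for CPM, was 0.0393 in 6M-2 and 0.0527 in 18M-2, while in the other 10 mice it lay between 0.373 and 0.461. Over the inner exons of Clock the median coverage on this scale was 0.377 in 6M-2 and 0.237 in 18M-2, within the range of 0.193 to 0.384 in the other 10. Counted over its RefSeq exons other than the last, a way of counting chosen after these values were seen, Clock measured 8.91, 10.9 and 9.64 CPM at 3M, 10.5, 10.7 and 9.52 CPM at 6M, 8.89, 11.2 and 6.16 CPM at 12M, and 9.47, 6.59 and 6.38 CPM at 18M. By this count 6M-2 was the highest mouse of its age. The lowest levels by this count were those of 12M-3, 18M-3 and 18M-2. The log2 change over 15 months was -0.43 ± 0.18 (SE) in this count, with an unadjusted p of 0.0292 and an adjusted p of 0.24 (edgeR), which does not pass the threshold. What lowered the coverage of the last exon in the files of these mice was not tested.

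**Figure D2:**
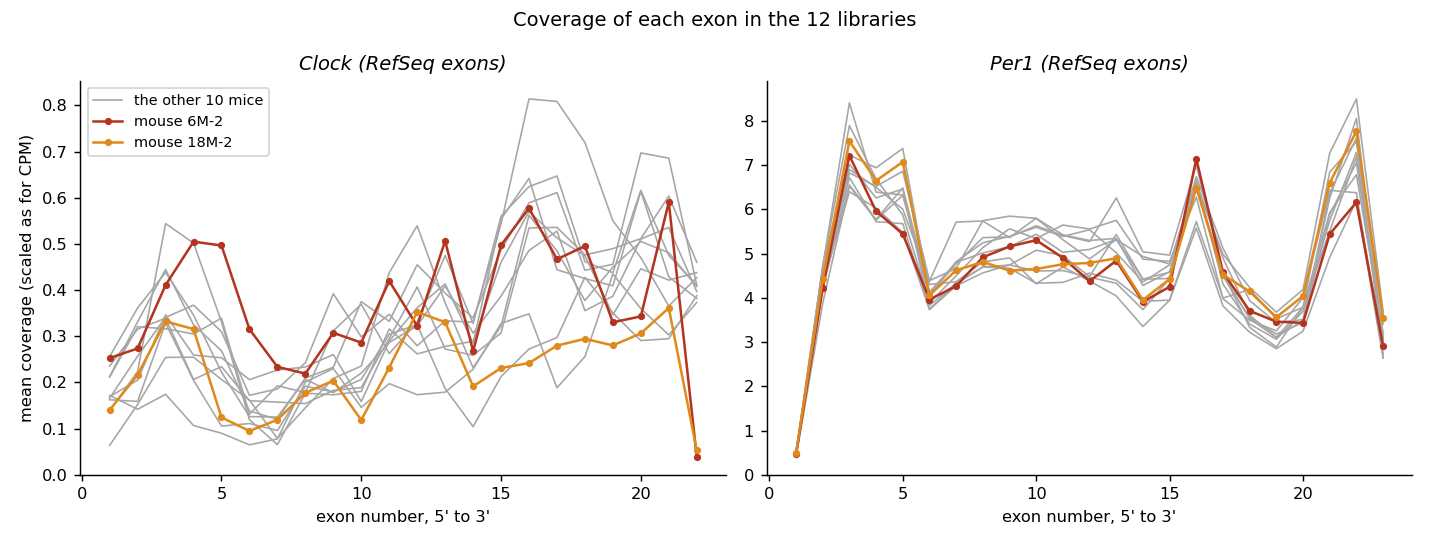
Mean read coverage scaled as for CPM (vertical axis, from 0) of each RefSeq exon, numbered 5′ to 3′ (horizontal axis), for Clock with 22 exons and Per1 with 23, with 1 line per mouse. In Clock, mice 6M-2 (red) and 18M-2 (orange) fall to 0.0393 and 0.0527 at the last exon while the other 10 stay above 0.37, and in Per1 the first exon is low in all 12.

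Per1 is the clock gene with the highest level in these testes. It measured 213, 219 and 192 CPM at 3M, 217, 212 and 209 CPM at 6M, 227, 223 and 238 CPM at 12M, and 204, 224 and 221 CPM at 18M. The 12M mice lay above the 6M mice without overlap, but the share of all genes without overlap between these ages was not computed. The log2 difference of 0.11 ± 0.05 (SE) did not pass the test (unadjusted p = 0.0718, adjusted p = 0.61, edgeR). In this comparison 0.0551% of all genes were called. Over 15 months the log2 change was 0.08 ± 0.06 (SE), with a 95% interval from -0.05 to 0.20.

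The assembler assigned most Per1 reads to transcripts with other first exons than the RefSeq ones, but the coverage it gave to those first exons was low too. Both RefSeq transcripts together held 3.68% of the reads of the gene, and between 2.45% and 4.72% in single mice. The first exon of the RefSeq transcript NM_011065, which is 53 bases long, was covered at 0.0843 to 0.105 of the median of the inner exons in all 12 mice. An assembled transcript with a first exon at chr11:69097497-69100195 was given 54.9% of the reads. That exon spans the RefSeq start site and contains the whole Per1 promoter printed above. Another assembled transcript, with a first exon at chr11:69094362-69095303, upstream of that promoter, was given 24.2% of the reads. A further transcript, with 14.3% of the reads, began at chr11:69088528 in Vamp2, the upstream neighbor, with whose exons it shares sequence. The coverage of these 3 first exons in their own transcripts, scaled as for CPM, was 0.0656 to 0.131, 0.186 to 0.278 and 0.0153 to 0.0717 in the order given, while the median over the inner exons of the gene was 4.35 to 5.36. These data do not settle where Per1 transcripts start. The division of reads among these transcripts is the estimate of the assembler, and it varied from 30.2% to 62.9% for the first of them over the 12 mice. Counted from exon 3 of NM_011065 on, which leaves out these first exons, Per1 measured between 168 and 211 CPM, and its log2 change over 15 months was 0.09 ± 0.06 (SE). With the RefSeq transcripts alone the slope estimate turned from 0.0051 to -0.013 log2 units per month, which was not called either.

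Per2, a period gene whose protein is part of the repressor complex, measured 10.8, 11.5 and 12.6 CPM at 3M, 10.9, 11.3 and 11.8 CPM at 6M, 12.7, 13.4 and 13.0 CPM at 12M, and 10.6, 13.4 and 12.0 CPM at 18M. All 3 mice at 12M lay above all 3 at 6M, and the 18M mice covered the range of the younger ages. How often 6M and 12M separate in this way among all genes was not computed. From 6M to 12M the log2 difference was 0.19 ± 0.08 (SE), with an unadjusted p of 0.0422 and an adjusted p of 0.58 (edgeR). The log2 change over 15 months was 0.10 ± 0.09 (SE), with a 95% interval from -0.10 to 0.30.

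Per3, which is not needed for the loop to run, measured 10.4, 11.9 and 9.86 CPM at 3M, 9.63, 11.1 and 10.2 CPM at 6M, 10.2, 10.3 and 9.78 CPM at 12M, and 9.56, 8.73 and 10.7 CPM at 18M. The lowest mouse was 18M-2 and the highest 3M-2, with overlap between all ages. Its log2 change over 15 months was -0.14 ± 0.08 (SE), with a 95% interval from -0.32 to 0.05 (adjusted p = 0.42, edgeR).

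Cry1 and Cry2 encode the cryptochromes, which repress BMAL1 and CLOCK directly. Cry1 measured 46.4, 48.4 and 44.4 CPM at 3M, 50.6, 45.2 and 46.4 CPM at 6M, 47.6, 47.5 and 44.8 CPM at 12M, and 44.5, 47.3 and 46.0 CPM at 18M. These values span 1.14-fold, the narrowest range of the 10 genes. Its log2 change over 15 months was -0.03 ± 0.05 (SE), with a 95% interval from -0.13 to 0.08. Cry2 measured 35.6, 37.1 and 33.7 CPM at 3M, 35.4, 33.4 and 36.2 CPM at 6M, 34.3, 35.5 and 31.6 CPM at 12M, and 35.8, 31.8 and 31.4 CPM at 18M. The lowest mice were 18M-3, 12M-3 and 18M-2, while 18M-1 was among the highest. With a log2 change of -0.11 ± 0.06 (SE) over 15 months and an interval from -0.23 to 0.02, Cry2 had the lowest p of the 10 genes, 0.0899 before adjustment.

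Nr1d1 and Nr1d2 encode the REV-ERB repressors of Arntl. Nr1d1 measured 29.8, 25.9 and 38.7 CPM at 3M, 34.0, 33.7 and 36.4 CPM at 6M, 35.1, 36.1 and 34.8 CPM at 12M, and 34.8, 34.9 and 28.9 CPM at 18M. Both the highest and the lowest mouse were 3M mice. The log2 change over 15 months was 0.04 ± 0.12 (SE), with a 95% interval from -0.21 to 0.29. With the RefSeq transcript alone, which held 24.5% of its reads, the slope estimate was 0.044 in place of 0.0026 log2 units per month, and it was not called. The last exon of Nr1d1 overlaps Thra, a gene for a thyroid hormone receptor on the opposite strand, by 263 bases, and the libraries carry no strand. Its coverage, scaled as for CPM, was 0.114 in 3M-2 and 0.0639 in 18M-3, the pair of mice with the lowest Nr1d1 levels, and 0.314 to 0.689 in the other 10. The part of this exon in their levels was not tested.

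Nr1d2 measured 22.7, 24.9 and 20.5 CPM at 3M, 23.4, 24.02 and 23.2 CPM at 6M, 20.5, 20.9 and 20.8 CPM at 12M, and 22.9, 23.9 and 21.8 CPM at 18M. The 3 mice at 12M lay below all 3 at 6M and all 3 at 18M. How often ages separate in this way among all genes was not computed. From 6M to 12M the log2 difference was -0.19 ± 0.06 (SE), with an unadjusted p of 0.0167 and an adjusted p of 0.53 (edgeR). From 12M to 18M it was 0.14 ± 0.06 (SE), with an unadjusted p of 0.0540. Over 15 months the log2 change was -0.04 ± 0.08 (SE). The RefSeq transcript of Nr1d2 held 42.4% of its reads, and between 12.7% and 77.0% in single mice, beside 1 longer assembled transcript.

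Dbp, the output gene, measured 4.91, 5.92 and 5.17 CPM at 3M, 5.05, 5.86 and 6.30 CPM at 6M, 5.09, 6.19 and 6.18 CPM at 12M, and 5.45, 5.73 and 6.71 CPM at 18M. Its mean was 5.33 ± 0.52 CPM (SD, n = 3) at 3M and 5.96 ± 0.66 CPM (SD, n = 3) at 18M, a difference of about the size of the spread within an age. The log2 change over 15 months was 0.14 ± 0.11 (SE), with a 95% interval from -0.10 to 0.37 (adjusted p = 0.54, edgeR). The last 539 bases of Dbp overlap Sphk2 on the opposite strand, whose reads cannot be told apart from those of Dbp without strand.

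Estimates of the slope were higher for 5 of the 10 clock genes and lower for the other 5. For 9 genes the 95% interval of the change over 15 months lay within 1.3-fold in either direction, a log2 change of 0.379, and for Clock it lay within 2-fold. Changes inside these intervals are not excluded by these data. The intervals are not adjusted for the number of genes and are not limits of detection, which are not given here. The median size of the slope was 0.0070 log2 units per month over the clock genes and 0.0082 over all genes tested.

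**Figure D3:**
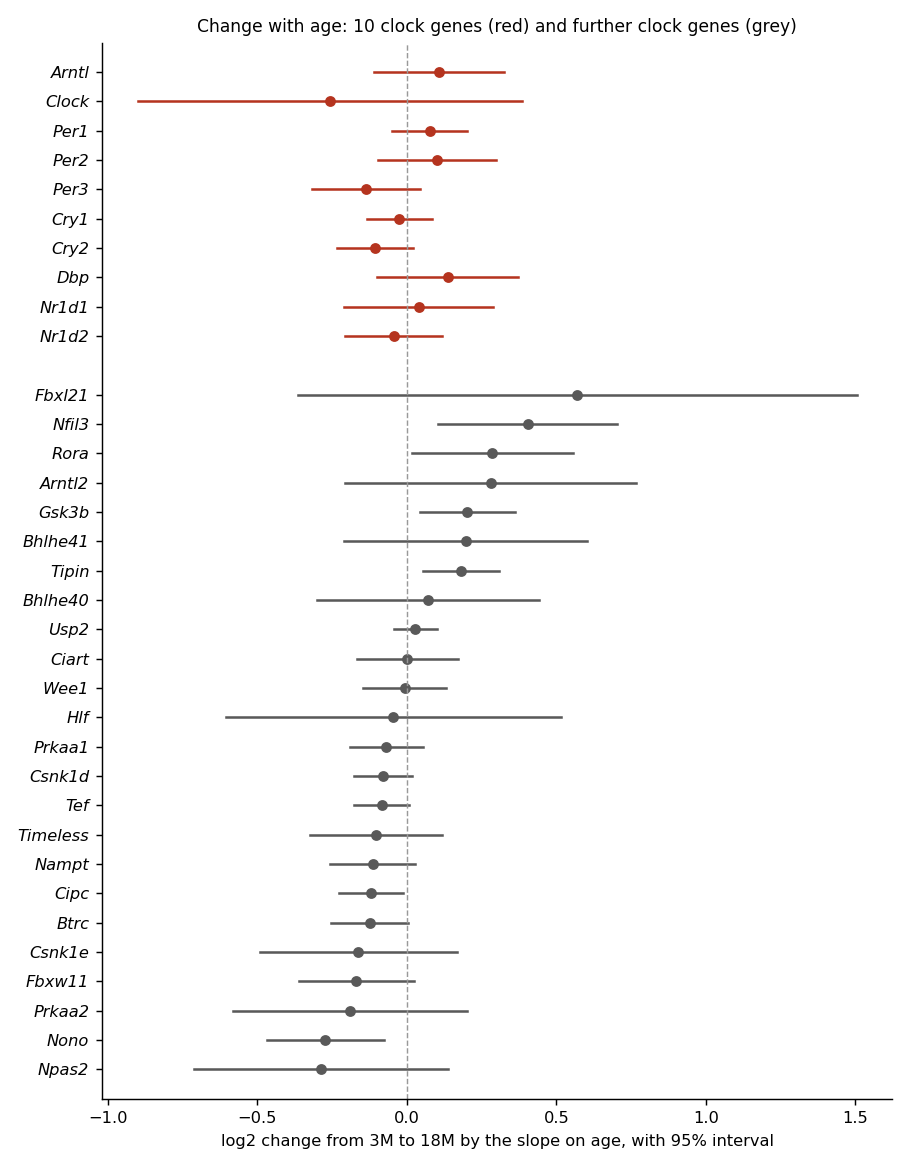
The log2 change from 3M to 18M by the slope on age (horizontal axis), with 95% intervals, for the 10 clock genes (red) and further clock genes (grey). The intervals of all 10 clock genes cross 0, and that of Clock, from -0.90 to 0.38, is the widest among them.

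The spread from mouse to mouse was of the size seen in other genes for 9 of the clock genes and larger for Clock as summed here. The ratio of the highest to the lowest of the 12 libraries was between 1.14 (Cry1) and 1.5 (Nr1d1) in these 9 genes and 2.81 in Clock. Without 6M-2 and 18M-2, the mice with low coverage of its last exon, the ratio for Clock was 1.305. Counted over its RefSeq exons other than the last, it was 1.82 over all 12 mice. Both ways were chosen after the values were seen. Among the 12247 genes with a mean of 4 CPM or more, the median of this ratio was 1.31, with 1.21 and 1.46 at the 25th and 75th percentiles, and 6.35% of genes reached a ratio of 2 or more. The median over the 10 clock genes was 1.28. The biological coefficient of variation, which is the spread beyond counting error in edgeR's model, was 7.41% for Per1, 7.67% for Cry1, 11.5% for Arntl, 12.0% for Nr1d1 and 12.4% for Dbp, beside a median of 11.6% over all genes tested. For Clock, with its last exon counted, it was 28.9%. In 9 of the 10 genes, the exception being Clock, this coefficient lay under the trend of all genes at the same level. The share of all genes under the trend was not computed, so this count does not set the clock genes apart.

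**Figure D4:**
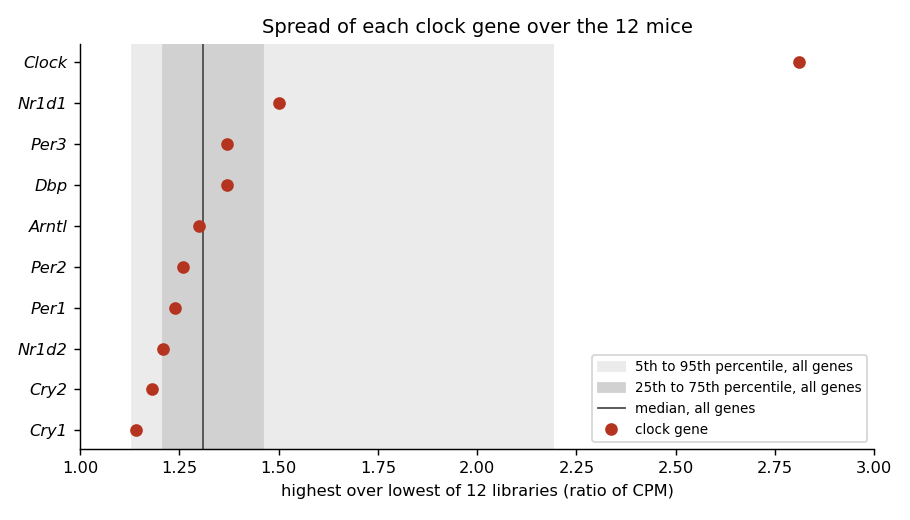
The ratio of the highest to the lowest of the 12 libraries (horizontal axis, CPM over CPM) for each clock gene (red points), over the 5th to 95th percentiles (light grey, 1.13 to 2.19), the 25th to 75th (darker grey) and the median (line, 1.31) of genes with a mean of 4 CPM or more. The 9 genes other than Clock lie between 1.14 and 1.5, and Clock, with its last exon counted, lies at 2.81.

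To see whether the limbs of the loop moved together or apart between mice, the log2 CPM of each pair of clock genes was correlated over the 12 mice. No pair of the 45 was called by permutation test after adjustment over the 45 pairs, the lowest adjusted p being 0.718, and 1 had an unadjusted p under 0.05. With Spearman's rho 0 were called and 3 had an unadjusted p under 0.05. Pearson's r ran from -0.654 to 0.511, and its median size was 0.274. Arntl and Dbp, which peak at about opposite times where the clock runs, had r = 0.495 (permutation p = 0.103) and rho = 0.629 (permutation p = 0.0326), with r = 0.553 without the 2 mice farthest from the median of Arntl and r = 0.494 after the mean of each age was removed. Their correlation was thus above 0 in each of these, but it failed the adjustment (adjusted p = 0.718 for r and 0.488 for rho, permutation test).

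The lowest r was that of Per3 with Nr1d1, at -0.654 (permutation p = 0.0225, adjusted p = 0.718), with rho = -0.517 (permutation p = 0.0893). Without the 2 mice farthest from the median of Per3 it was -0.445, and within ages -0.751. The highest r was that of Clock with Cry2, at 0.511 (permutation p = 0.0786), with rho = 0.713 (permutation p = 0.0126, adjusted p = 0.488). This r was 0.516 without the 2 mice farthest from the median of Clock, and 0.511 within ages. Per1 and Per2 had r = 0.403 (permutation p = 0.198) and rho = 0.657 (permutation p = 0.0234). Within ages r was -0.031, while without the 2 mice farthest from the median of Per1 it was 0.758. These pairs were named for their extreme r or their unadjusted p, after their values were seen.

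**Figure D5:**
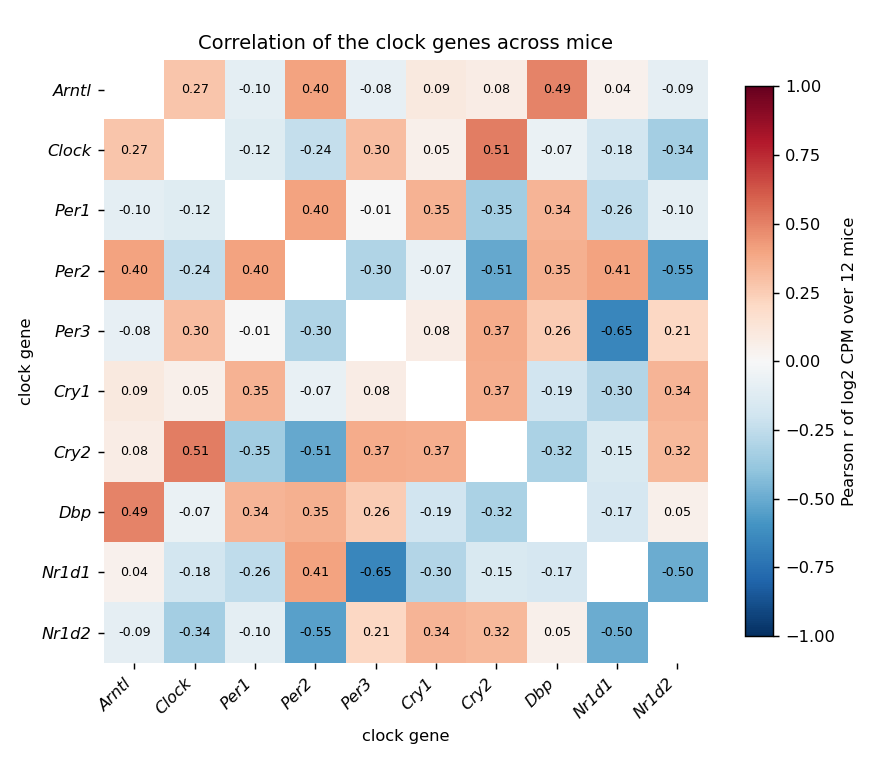
Pearson's r of log2 CPM over the 12 mice for each pair of the 10 clock genes (both axes), in red above 0 and blue below 0. The values lie between -0.654 (Per3 with Nr1d1) and 0.511 (Clock with Cry2), and none of the 45 passed the test.

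Among 15393 genes with a mean of 1 CPM or more, the highest Pearson's r with Arntl was that of Armc10, at 0.875, followed by Slc27a3 at 0.839, Ccdc190 at 0.826, Golph3 at 0.802 and Ddx17 at 0.802. Dbp, the clock gene most like it, held rank 511. With Dbp the highest values were those of Fam172a at 0.867, Pgrmc2 at 0.857, A930005H10Rik at 0.837, Deaf1 at 0.823 and Zfp697 at 0.822, and the first clock gene was Nfil3 at rank 423. These are the tops of long lists over 12 mice and are given as a description. In each mouse, all genes share the same library and depth.

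Of 27 further genes of the clock, which hold partners, other regulators of Arntl, kinases and ubiquitin ligases that act on PER and CRY, 26 passed the filter on low counts and 0 were called in the test of the slope. At an unadjusted p under 0.05 there were 6, of which 4 had higher and 2 lower estimates, against 17.5% of all genes tested, and DESeq2 called 0 of the list. In the other 5 comparisons 0 of 26 were called too, with 3, 2, 0, 3 and 0 at an unadjusted p under 0.05 in the order of any difference, 3M vs 18M, 3M vs 6M, 6M vs 12M and 12M vs 18M, where the shares of all genes were 10.3%, 13.5%, 4%, 8.48% and 3.48%. The highest slope estimates were those of Fbxl21, a ubiquitin ligase subunit that acts on CRY, with a log2 change over 15 months of 0.57 ± 0.43 (SE), Nfil3, a repressor at the D-box, with 0.40 ± 0.14, and Rora, an activator of Arntl, with 0.29 ± 0.12. Fbxl21 was low, at 0.194 to 0.726 CPM over the 12 mice, with a biological coefficient of variation of 37%. Among the lowest slope estimates was that of Npas2, a stand-in for Clock, with -0.29 ± 0.20.

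Nfil3 measured 4.34, 4.52 and 3.20 CPM at 3M and 4.36, 5.77 and 5.71 CPM at 18M, with overlap between these ages (adjusted p = 0.18 for the slope, edgeR). Rora measured 46.1, 35.0 and 28.0 CPM at 3M and 44.4, 46.0 and 46.7 CPM at 18M, and 3M-3 and 3M-2 were its lowest mice of all 12 (adjusted p = 0.26, edgeR). In FPKM the order was the reverse, with 5.56, 15.9 and 13.4 FPKM at 3M and 3.996, 3.93 and 5.25 FPKM at 18M, so no direction is given for Rora. Rorb, a relative of Rora known from the retina, was the gene that did not pass the filter, at 0 to 0.156 CPM.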

How the data were processed

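Total RNA of the testes of 12 mice was depleted of ribosomal RNA and sequenced as paired-end libraries without strand information. The authors used HISAT2 (version not given in the sources used here) for alignment to mm10, and StringTie 1.3.3b to build transcripts, merge them over libraries and estimate their levels. They deposited estimated counts and FPKM values per transcript and library. The deposited counts are coverage times length over a read length of 101, rounded up. The deposited FPKM values are scaled to the depth of each library and have no further normalization between libraries. Both were checked against the assemblies and differed in 0 of 71967 transcripts, at a tolerance of 1 read and 0.001 FPKM.

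Counts of transcripts of class =, c, j or o were summed per gene symbol. The test of all genes was the quasi-likelihood F-test of edgeR 4.0.16 (R 4.3.3), with filterByExpr, TMM factors and Benjamini-Hochberg adjustment. All 12 libraries entered the slope and the test of any difference, and the 6 of both ages each pair. DESeq2 1.42.0 and limma 3.58.1 on log2(FPKM + 1) and log2(FPKM + 0.1) were alternatives, the others being other normalizations, filters, ways of summing, the mouse number as a block, and each library left out. Pairs of clock genes were compared by Pearson's r and Spearman's rho of log2 CPM with a prior count of 2, by two-sided permutation tests with 100000 resamples. Exon coverage came from the deposited assemblies, overlaps from GENCODE vM21, and promoters from RefSeq. The p-values rest on the spread between mice and do not measure it, and the sources do not say whether mice of an age shared a litter. The scripts were tested on simulated data. Python 3.11.15, numpy 2.4.6, pandas 2.3.3 and scipy 1.17.1 served for the other steps.

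The clock genes and the lists were chosen with earlier results of these data known. Named are all 10 clock genes, the 3 further clock genes with the highest and the 3 with the lowest slope estimates, since fewer than 3 passed a test (2 of these are not reported here), and the 5 genes most like Arntl and the 5 most like Dbp.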

Additional observations from a re-analysis of the deposited data

How the results depend on the processing

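The count of 0 clock genes called was the same in all 137 alternatives over the 6 comparisons. So was that of 0 further clock genes in 137 and of 0 correlated pairs in 17. In the pairs of ages, 1 alternative only added a log2 fold change of 1 or more to the fit reported. It could not raise a count of 0. Of all genes, the slope called 76 in the fit reported, 566 with DESeq2, 11 with RefSeq transcripts alone, 41 and 40 with limma on log2(FPKM + 1) and log2(FPKM + 0.1), 47 without the filter, and between 18 and 192 with 1 library left out. Without 6M-2 and 18M-2, a setting chosen after seeing the data, it called 13 of all genes and 0 clock genes. Of the estimated slopes of single clock genes, 246 of 252 moved by less than 1 SE. The exceptions were, with RefSeq transcripts alone, Per1 (-0.013 log2 units per month against 0.0051), Cry2 (-0.0023 against -0.0071), Nr1d1 (0.044 against 0.0026) and Nr1d2 (-0.0083 against -0.0030), and with limma on FPKM Nr1d1 (0.015 and 0.016). The slope of Clock turned to 0.00064 without 18M-2. None of these was called.

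The mouse numbers occur at each age, and the correlation of deviations from the age means lay between -0.0778 and 0.132 for the 18 pairs of libraries with the same number, with 2 over 0.1, and between -0.165 and 0.101 for the other 36. The numbers therefore pair nothing that these data show. With the mouse number as a replicate block, 0 clock genes were called in each comparison, and the slope called 42 of all genes. Depth limits Arntl and Dbp most, at 212 to 384 and 257 to 478 reads per library.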

Other observations

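Of the 2 transcripts named Clock that the rule left out, both lay inside an intron of Clock, between chr5:76232012 and chr5:76233103. They overlap Ube2n-ps1, a processed pseudogene at chr5:76232612-76233070 in GENCODE vM21. An assembled transcript that the rule did take shares that region, so 25.1% of the Clock reads as summed here belonged to a transcript that overlaps the pseudogene. With both intronic transcripts added, Clock ranged from 61.9 to 92.0 CPM (1.49-fold), and with RefSeq transcripts alone from 7.78 to 38.0 CPM (4.89-fold). Mice 6M-2 and 18M-2 were the lowest pair in each of these sums. A further pair of the 10 genes share exonic bases with genes on the opposite strand, Cry2 with D930015M05Rik over 149 bases and Arntl with Gm45355 over 33 bases.

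Of the further clock genes, Usp2 and Csnk1d were present at levels above those of all 10. Usp2, a deubiquitinating enzyme and known output gene of the clock, had a median of 144.5 FPKM (135 to 152) and, in CPM, the narrowest range of the list, at 1.08-fold. Csnk1d, the kinase that phosphorylates PER, had a median of 54.5 FPKM (40.0 to 58.6). Gsk3b, another kinase of clock proteins, had a median of 27.3 FPKM (23.4 to 56.3). Its range holds that of Per1, so the order of Gsk3b and Per1 is not settled. Wee1, a cell cycle kinase with clock-bound promoter elements, had a median of 17.2 FPKM. Below the medians of all 10 lay Npas2, with 0.398 FPKM, and Arntl2, the paralog of Arntl, with 0.565 FPKM. They were not the lowest of the list, in which Rorb had a median of 0.0049 FPKM. These genes were named after their levels were seen.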
